A study of Rattus norvegicus with 6 samples.

Results

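Genes of voltage-gated sodium channels were followed in the medial prefrontal cortex (mPFC) of rats after a single dose of lysergic acid diethylamide (LSD), a hallucinogen that acts on serotonin receptors. They were the alpha subunit genes Scn1a, Scn2a, Scn3a and Scn8a and the beta subunit gene Scn2b. The members were all probe sets (groups of short oligonucleotides that together read 1 transcript) whose platform annotation named 1 of these symbols and no other gene. This gave 8 of the 8799 probe sets on the array, with 1 each for Scn1a, Scn2a and Scn2b, 2 for Scn3a and 3 for Scn8a, and each of the 5 genes was measured, of 4736 genes with a symbol in all.

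The animals were male Sprague-Dawley rats with no genetic alteration named in the labels. One group received LSD at 1.0 mg/kg by intraperitoneal injection and the other received saline by the same route, and tissue was taken after 90 min. Each group was read on 3 Affymetrix rat genome arrays, 6 in all. The labels state that tissue of 4 animals was pooled in each treatment group. The study instead describes independent arrays that each held a pool of 2 rats, which would need more animals than that. The p-values and intervals given here thus reflect only how far arrays of a group differed, and that may be technical variation. The description of each sample also carries a line that names the other treatment. Titles and treatment labels were followed here, and under the other reading every sign below would turn.

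A voltage-gated sodium channel is built from a large alpha subunit, which forms the pore and senses the membrane voltage, and smaller beta subunits, which tune gating and surface level and bind adhesion and matrix proteins. The channels carry the rising phase of the action potential. In cortex, Scn1a (NaV1.1) is best known from inhibitory interneurons, Scn2a (NaV1.2) from excitatory neurons and their unmyelinated axons, Scn8a (NaV1.6) from the axon initial segment and nodes of Ranvier, and Scn3a (NaV1.3) from the embryonic brain. Scn2b encodes a beta subunit that is linked to the alpha subunit by a disulfide bond.

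The genes differ in where they lie and in the sequence near their starts. In RefSeq gene order (GRCr8 assembly), Scn3a and Scn2a are direct neighbours on chromosome 3 and Scn1a follows Scn2a on that chromosome with 4 protein-coding genes between them, while Scn8a lies on chromosome 7 and Scn2b on chromosome 8, next to Scn4b. RefSeq promoter windows, which span 300 bases around a transcript start, were held for Scn2a, Scn3a, Scn8a and Scn2b. The Scn8a window had 84.7% G and C, more than 99.9% of all windows of this length. The windows of Scn2a (39.3%), Scn3a (43.3%) and Scn2b (39.0%) lay below the median of 51.7%. The stretches that follow show this contrast, and are 100 bases upstream of the first RefSeq start of each gene, except for Scn8a, whose window overlaps the span of its other transcripts and is shown by 30 bases only. They are written 5′ to 3′ on the strand of the gene, from GRCr8, and capitals mark matches to the motifs named next.

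Scn2a, chr3:70710762-70710861, plus strand: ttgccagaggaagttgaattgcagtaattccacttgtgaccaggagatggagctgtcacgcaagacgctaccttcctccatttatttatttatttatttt

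Scn3a, chr3:70666199-70666298, minus strand: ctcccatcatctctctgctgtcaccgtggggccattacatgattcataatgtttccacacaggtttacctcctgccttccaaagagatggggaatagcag

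Scn2b, chr8:54322283-54322382, plus strand: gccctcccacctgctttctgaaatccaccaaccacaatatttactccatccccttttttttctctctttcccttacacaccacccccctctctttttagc

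Scn8a, chr7:133861052-133861081, plus strand: gcgggGCGCGGGCGGacGGGCGGgagggcg

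Motifs were searched on both strands of the whole windows. The cAMP response element TGACGTCA, found in 1.83% of 33469 rat promoter windows, the CArG box (1.64%), the motif TTCAGCACC, a part of the site of the neuronal repressor REST (0.356%) and the TATA box TATAAA (14.2%) were not found in any of the 4 windows. The Egr-type motif GCGNGGGCG, found in 4.98% of windows, matched 3 times in the Scn8a window and in no other of the 4. The GC box GGGCGG (33.1% of windows) matched 7 times there, partly in the same letters as the Egr-type motif, and again in no other of the 4. A match describes letters only and is no evidence of binding.

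No probe set of the 5 genes passed the test between LSD and saline. The test was limma over all 8740 probe sets other than controls, with p-values adjusted by Benjamini-Hochberg and called below 0.05, and it called 0.0686% of them. Of the 8 members, 0 were called, 0 had an unadjusted limma p below 0.05 (3.92% of all probe sets did), and 4 were nominally higher and 4 lower after LSD. Their changes ran from -0.21 to 0.07 on the log2 scale with a median of -0.0085, beside a median of 0.0045 over all probe sets. All values are log2 RMA units, in which 1 unit is a doubling of signal, and signals of different probe sets do not compare transcript amounts.

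The intervals rest on the same spread between arrays as the p-values, and that spread may be technical. They describe the changes on this scale for these arrays and do not bound the change between animals. The 95% interval of each of the 8 probe sets lay within 1.5-fold in both directions, as did 92.4% of all intervals. The highest upper bound was 1.38-fold (Scn3a, Y00766_at) and the lowest bound was 1.36-fold lower (Scn2a). RMA compresses the folds of dim probe sets, so these bounds hold for these arrays on the RMA scale. They are weakest for the dim probe sets of Scn8a and Scn2b.

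**Figure D1:**
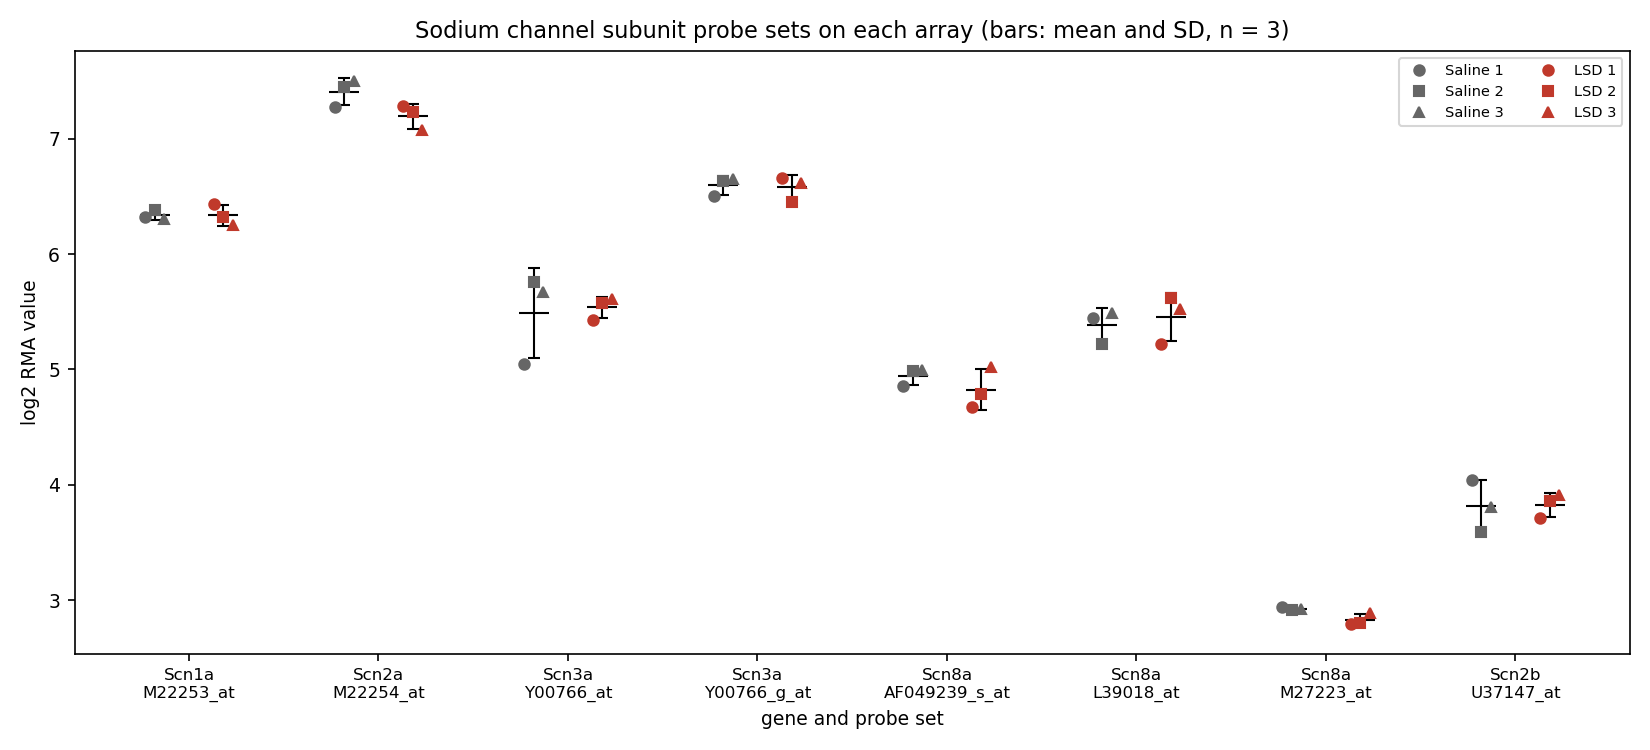
Log2 RMA values (vertical axis) of the 8 sodium channel probe sets (horizontal axis) on each of the 3 saline (grey) and 3 LSD (red) arrays, with black bars for the mean and SD. The groups overlap for 7 probe sets, and the LSD arrays lie below the saline arrays for the Scn8a probe set M27223_at only.

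Scn2a, the sodium channel gene best known from excitatory neurons, had the largest difference of the 8. Its probe set M22254_at read 7.27, 7.45 and 7.50 on the saline arrays and 7.28, 7.23 and 7.07 on the LSD arrays. All LSD arrays were thus below Saline 2 and Saline 3, and LSD 1 was just above Saline 1. The means were 7.41 ± 0.12 and 7.19 ± 0.11 (SD, n = 3), a log2 difference of -0.21 ± 0.099 (SE), with a 95% interval from -0.44 to 0.02 an adjusted limma p of 0.981 and an unadjusted one of 0.0657. An exact two-sided rank test gave p = 0.2, where 0.1 is the smallest value that 3 against 3 arrays allow. Among all probe sets, 465 had a smaller limma p. The signal was brighter than that of 82.9% of probe sets, so compression is less of a limit here than for the other members.

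The Scn2a difference was negative in all 14 settings of the fit, from -0.28 without Saline 1 to -0.15 without LSD 3. All settings reuse the same arrays. The filter on dim probe sets, the changed prior and the replicate block cannot alter the difference itself, so their sign adds no support. The lowest adjusted limma p over these settings was 0.162, with arrays weighted by quality. Saline 1 stood apart from the other arrays, where 78 probe sets lay over 1 log2 unit away from the average of the remaining 5, against 2 to 21 on the other arrays. Without Saline 1 the Scn2a difference had an unadjusted limma p of 0.0210 and an adjusted one of 0.536. Over the 14 settings the unadjusted limma p ran from 0.0055 with array weights to 0.21 without LSD 3.

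Scn1a, the sodium channel gene best known from inhibitory interneurons, had the smallest difference of the 8. Its probe set M22253_at read 6.32, 6.38 and 6.31 on the saline arrays and 6.43, 6.32 and 6.26 on the LSD arrays, so that the LSD arrays spanned the whole saline range. The means were 6.34 ± 0.040 and 6.34 ± 0.089 (SD, n = 3), with a log2 difference of 0.00034 ± 0.085 (SE) and a 95% interval from -0.20 to 0.20. It also varied little, since 88.0% of all probe sets had a larger SD within groups.

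Scn3a, which is expressed mainly before birth, was read by a pair of probe sets whose names carry the same source sequence. The brighter, Y00766_g_at, read 6.50, 6.64 and 6.65 on the saline arrays and 6.66, 6.45 and 6.62 on the LSD arrays. These values overlapped fully, and the log2 difference was -0.02 ± 0.093 (SE). The other, Y00766_at, read 5.04, 5.76 and 5.67 on the saline arrays and 5.43, 5.57 and 5.61 on the LSD arrays. Saline 1 alone was low here, which gave the saline group an SD of 0.39 against 0.094 in the LSD group and made this the least precise of the 8, with a log2 difference of 0.05 ± 0.18 (SE). Without Saline 1 the difference turned to -0.17, with an adjusted limma p of 0.596, so neither direction can be assigned to Scn3a.

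Scn8a, the gene of the channel at the axon initial segment and nodes, was read by 3 probe sets that did not share a direction. AF049239_s_at read 4.85, 4.99 and 4.99 on the saline arrays and 4.67, 4.78 and 5.02 on the LSD arrays, a log2 difference of -0.12 ± 0.11 (SE). LSD 3 was the highest of all 6 arrays here while the other two LSD arrays were the lowest, and the suffix _s_at means that the probe set can match several transcripts. L39018_at, the brightest of the 3, read 5.44, 5.22 and 5.49 on the saline arrays and 5.22, 5.62 and 5.52 on the LSD arrays, with a log2 difference of 0.07 ± 0.13 (SE). One array of each group was low in this probe set, and the groups overlapped.

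M27223_at was the dimmest Scn8a probe set and the only member whose groups did not overlap. It read 2.94, 2.91 and 2.93 on the saline arrays and 2.79, 2.80 and 2.89 on the LSD arrays, with a log2 difference of -0.10 ± 0.078 (SE, adjusted p = 0.981 in limma). The exact two-sided rank test gave p = 0.1, the smallest it can give. Groups without overlap were found for 10.4% of all probe sets, and for 3.79% with LSD lower, so 1 member of 8 is near that background. Only 3.43% of probe sets were dimmer than this one, and no detection calls were used, so it was not tested whether its signal exceeds background.

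Scn2b, the only beta subunit gene among the members, had a difference near 0. Its probe set U37147_at read 4.04, 3.60 and 3.81 on the saline arrays and 3.71, 3.86 and 3.91 on the LSD arrays. The saline arrays held both the highest and the lowest value. The log2 difference was 0.01 ± 0.12 (SE), with a 95% interval from -0.28 to 0.30.

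**Figure D2:**
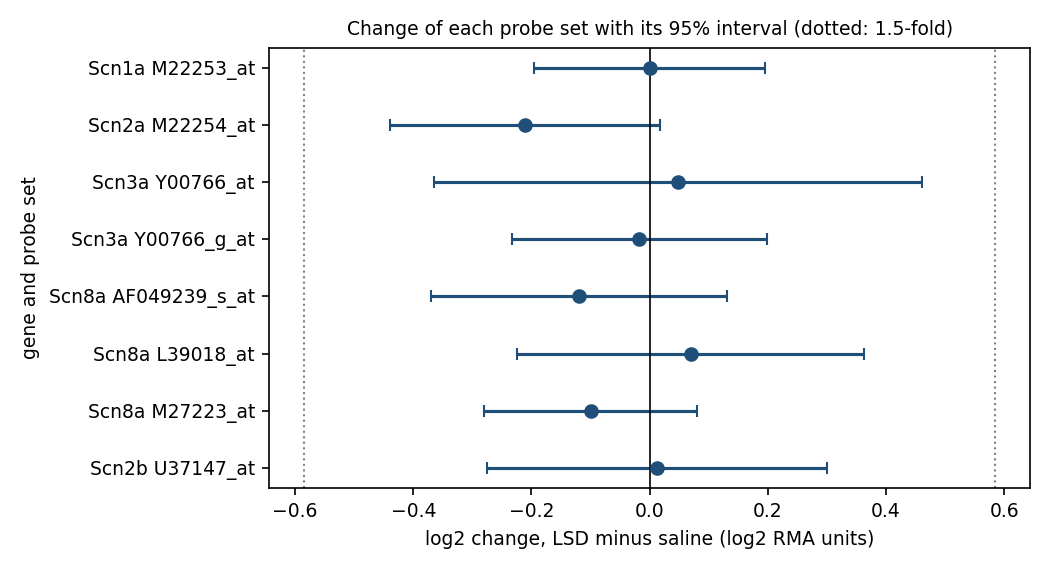
LSD minus saline in log2 RMA units (horizontal axis) of each of the 8 probe sets (vertical axis), where points are limma estimates and bars their 95% intervals from 3 arrays in each group. All 8 intervals contain 0 and lie inside the dotted lines, which mark 1.5-fold in either direction.

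**Figure D3:**
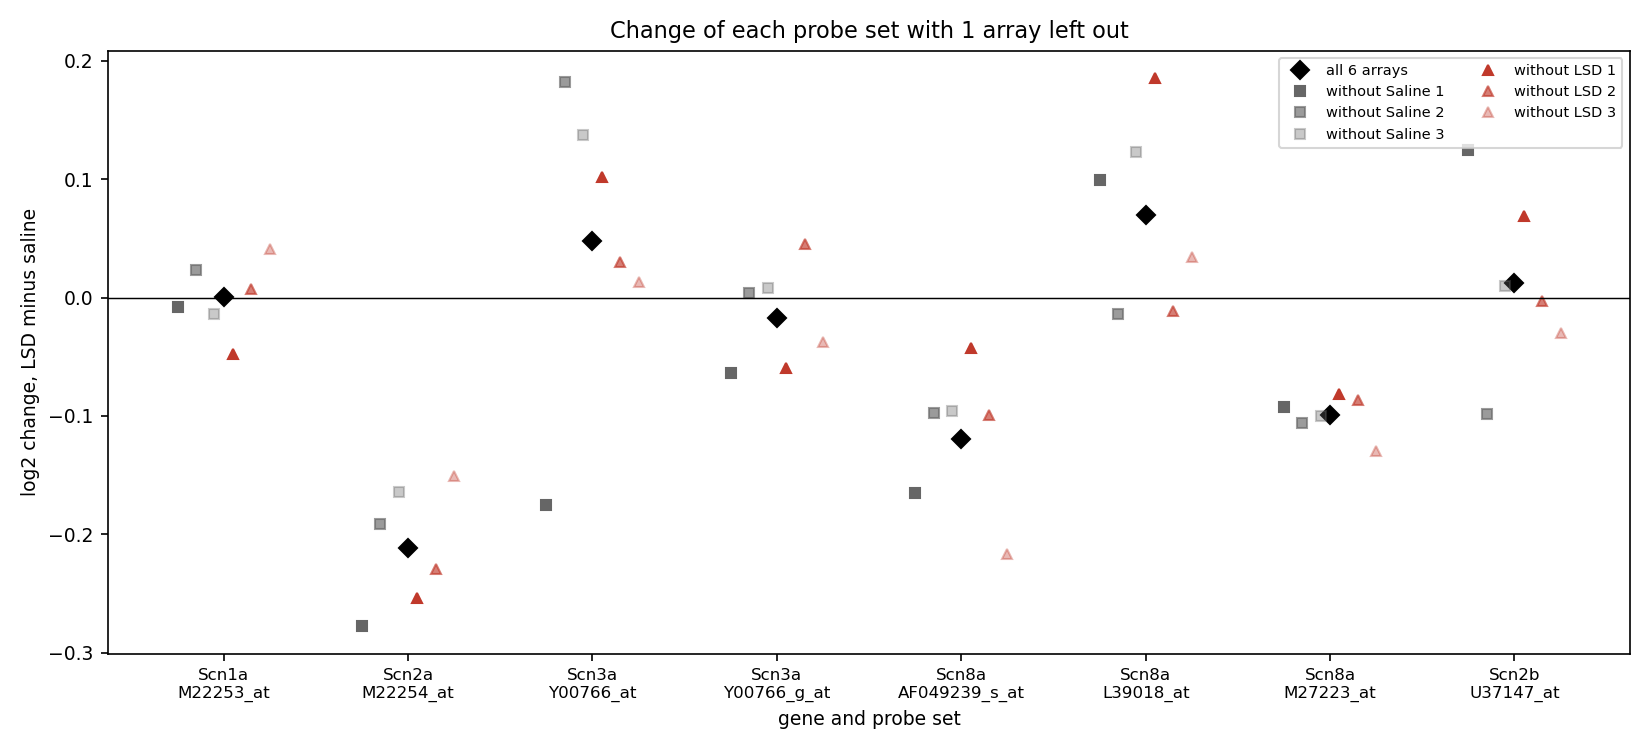
Log2 change (vertical axis) of each of the 8 probe sets (horizontal axis) over all 6 arrays (black diamonds) and with 1 array left out (grey squares for a saline array, red triangles for an LSD array, darkest for replicate 1). Scn2a and the Scn8a probe sets AF049239_s_at and M27223_at stay below 0 whichever array is left out, and the other 5 cross 0.

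At 1 probe set per gene, the brightest, again no member was called. Over 4736 genes, of which 0.0211% were called by limma, the changes were -0.21 for Scn2a (an unadjusted limma p of 0.0602 and an adjusted one of 0.971), -0.02 for Scn3a, 0.07 for Scn8a, 0.01 for Scn2b and 0.00034 for Scn1a. No gene of the 5 had an unadjusted limma p below 0.05, against 3.63% of all genes.

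Other sodium channel genes of the array, from a list compiled from general knowledge, were also short of the threshold. Of 10 listed, 6 were measured, 5 were nominally lower and 1 higher, with 0 called and a median of -0.04 against 0.0056 over all genes. The lowest limma p values went to Scn9a, the channel of pain-sensing neurons, at -0.09 ± 0.085 (SE), the skeletal muscle channel gene Scn4a at -0.07 and the sensory neuron gene Scn10a at -0.03. Only 16.9% of probe sets were dimmer than that of Scn9a and 17.6% than that of Scn10a. It was not tested whether these signals exceed background. Nalcn, the gene of a sodium leak channel, was at 0.02.

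Proteins that anchor or modify the channels were read by 17 of 30 listed genes, of which 8 were nominally higher after LSD and 9 were lower. Their median log2 difference was -0.0065. In limma 0 were called (0.0211% of all genes), and 2 had an unadjusted p below 0.05 (3.63% of all genes). Nrcam, a cell adhesion molecule of the axon initial segment, read 6.45, 6.50 and 6.60 on the saline arrays and 6.92, 6.79 and 6.68 on the LSD arrays. All LSD arrays were above all saline arrays, at a log2 difference of 0.28 ± 0.094 (SE) and an adjusted limma p of 0.971. Cntn1, which encodes contactin, an adhesion partner of the beta subunits, read 6.52, 6.59 and 6.74 against 6.90, 6.80 and 6.79, with a log2 difference of 0.21 ± 0.089 (SE, adjusted p = 0.971 in limma). Its groups did not overlap either, with LSD higher. Groups without overlap were found for 3 of the 17 and for 10.3% of all genes.

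The remaining named partners overlapped between groups except for Ptprz1. Fgf14, a cytoplasmic modulator of the alpha subunit, was at 0.25 ± 0.16 log2 units (SE). It read 3.06, 3.17 and 3.23 on the saline arrays and 3.77, 3.35 and 3.09 on the LSD arrays. Only 9.81% of probe sets were dimmer. Ptprz1, a receptor phosphatase that binds sodium channels, was at -0.21 ± 0.10 (SE), with every LSD array below every saline array. This probe set was brighter than only 22.8% of probe sets, and the other Ptprz1 probe set, U04998_at, was at -0.09 with overlapping groups. The kinase genes Mapk14 and Csnk2a1, whose products phosphorylate sodium channels or their partners, were at -0.29 ± 0.14 and -0.11 ± 0.091 (SE). These 4 genes all had an adjusted limma p of 0.971 with the brightest probe set of each.

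Ank3, which encodes ankyrin-G, the anchor of sodium channels at the axon initial segment, is described because its probe sets differed, which was seen in the values and not set by a rule. The brightest of its 6 probe sets, AF102552_s_at, was at -0.05 ± 0.095 log2 units (SE). The other 5 ranged from 0.01 to 0.45. The highest, rc_AI058601_g_at, read 4.91, 4.82 and 4.91 on the saline arrays and 5.06, 5.44 and 5.49 on the LSD arrays, without overlap (adjusted p = 0.874 in limma). A further one, AF069525_at, also had all LSD arrays above all saline arrays, at 0.23 ± 0.10 (SE). Groups without overlap were thus found for 2 of its 6 probe sets and for 10.4% of all probe sets. Further probe sets of Scn7a and Tnc were nominally lower after LSD, as were the brightest of these genes (-0.03 and -0.06 log2 units). For Scn7a, rc_AA925248_at had all LSD arrays below all saline arrays at -0.12 ± 0.085 log2 units (SE). It was dim, at 2.80, 2.81 and 2.80 on the saline arrays and 2.57, 2.75 and 2.72 on the LSD arrays. For Tnc, which encodes tenascin-C, U15550_at was at -0.37 ± 0.17 (SE) with overlapping groups. These further probe sets were also picked from the values.

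**Figure D4:**
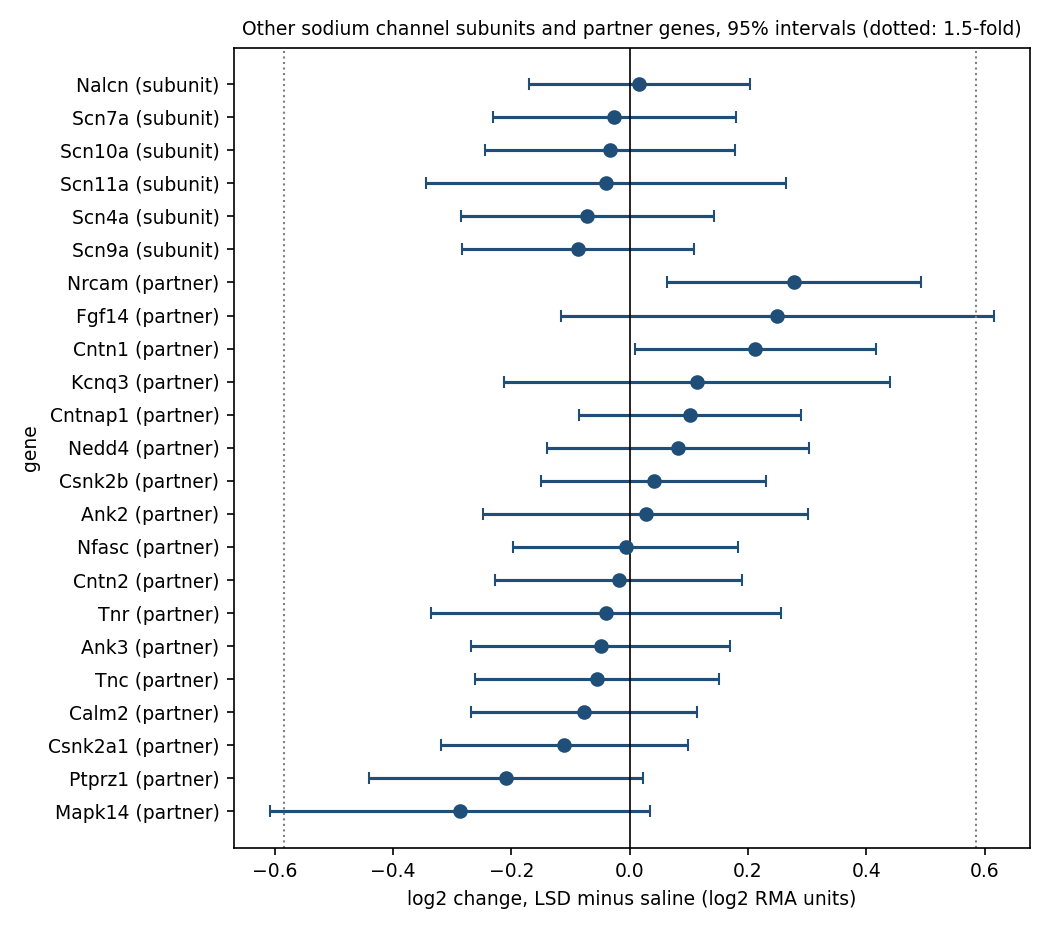
LSD minus saline in log2 RMA units (horizontal axis) of 6 further sodium channel genes and 17 partner genes (vertical axis), where points are limma estimates at 1 probe set per gene and bars their 95% intervals from 3 arrays in each group. The intervals of Nrcam and Cntn1 lie above 0 before adjustment, and dotted lines mark 1.5-fold.

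Markers of the dissected tissue were read alongside. Of 11 cortical neuron markers 8 were measured, with Nrgn and Snap25 among the bright ones at mean log2 signals of 11.02 and 10.68. Of these 8, 3 were nominally higher after LSD (Pvalb at 0.19, Snap25 at 0.13 and Nrgn at 0.06). The other 5 were lower (Gad1 at -0.20, Camk2a at -0.19, Slc17a7 at -0.16, Gad2 at -0.13 and Sst at -0.03), and the median of the 8 was -0.08. Striatal markers were nominally lower in 7 of 7 measured (median -0.18). Of these, 3 had an unadjusted limma p below 0.05 (3.63% of all genes), namely Penk at -0.46, Arpp21 at -0.36 and Tac1 at -0.32, and 0 were called. The summed log2 level of the 7 was 42.75 to 43.03 on the saline arrays and 40.91 to 41.58 on the LSD arrays. For cortical neuron markers that sum was 61.80 to 61.93 and 61.39 to 61.60. Both sums moved in the direction of Scn2a, and their part in the Scn2a difference was not tested. The sums of the other marker lists overlapped between groups. On saline and LSD arrays they were 64.15 to 65.19 and 64.83 to 65.05 for myelin, and 62.55 to 63.40 and 62.92 to 63.00 for astrocytes. For peripheral nerve and muscle they were 52.47 to 53.33 and 52.15 to 52.91. Of 8 myelin markers 4 were nominally higher (median 0.02). Of 8 astrocyte markers 4 were nominally higher (median 0.01), and 3 had an unadjusted limma p below 0.05 (3.63% of all genes), in both directions. These were Aqp4, a water channel, at 0.41 log2 units, Slc1a3, a glutamate transporter, at -0.25 and S100b, a calcium-binding protein, at -0.24. Groups did not overlap for 2 of the 8 astrocyte markers (Aqp4 and Slc1a3) and for 5 of the 7 striatal ones, against 10.3% of all genes. The same held for 1 of the 8 cortical neuron markers (Snap25, with LSD higher). Peripheral nerve and muscle markers had 5 of 9 higher (median 0.0043). In tissue of mixed cells, fewer cells of a type and less RNA per cell cannot be told apart.

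The genes with the most similar course over the 6 arrays were found from centred values at 1 probe set per gene, by the root mean square difference. For Scn2a these were Fabp5, a fatty acid binding protein gene, and Tcea2, a transcription elongation factor gene, at 0.030 and 0.032 log2 units, where the median gene was at 0.19. For Scn1a they were Cacna2d1, an auxiliary calcium channel subunit gene (0.019), and Rfx5 (0.022). Ckmt1 and Cul2 were nearest to Scn3a, Lgals3 and Slc6a4, the serotonin transporter gene, to Scn8a, and Eif2b4 and Acp3 to Scn2b, at 0.025 to 0.031 log2 units. These genes were the nearest of 4736 over only 6 arrays, and are given as a description.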

How the data were processed

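The authors normalised the raw arrays with RMA in the affy package and deposited log2 values per probe set. The version is not given in the sources used here. RMA corrects background, applies quantile normalization and summarises probes, so a change common to most transcripts cannot be seen. Arrays have no read depth, and their number limits the precision. Of 8799 probe sets, 59 control probe sets were left out. In the platform annotation 7006 of the others had 1 symbol, 308 had several and 1426 had none. All 5 member gene IDs matched RefSeq genes with the same symbol. A promoter was not held for Scn1a.

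LSD and saline arrays were compared by a two-sided test in limma (version 3.58.1, R 4.3.3) using lmFit and eBayes without covariates, and p-values were adjusted by Benjamini-Hochberg over all 8740 probe sets, or over 4736 genes with the brightest probe set of each. This fit was also tested on simulated data. The genes named were every member, up to 3 genes of lowest p per direction from the lists of other subunits and of partners, and the 2 genes nearest in course to each member. Outside this rule, single tissue markers and the further probe sets of Ank3, Scn7a and Tnc were named after the values were seen. Members and lists were chosen with earlier results of these data known. As alternatives, the arrays were rescaled in 3 ways, dim probe sets were filtered out, the prior was made robust with an intensity trend, arrays were weighted, the replicate number entered as a block, the probe sets of a gene were combined differently, each array was left out in turn, and an exact rank test was run.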

Additional observations from a re-analysis of the deposited data

How the results depend on the processing

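No member and no partner gene was called in any of the alternative fits. The exact rank test was run on the member probe sets only. It could call none, since its smallest p with 3 against 3 arrays is 0.1. Scn2a and the Scn8a probe sets AF049239_s_at and M27223_at were nominally lower after LSD in each fit that kept them. The filter on dim probe sets left out the Scn8a and Scn2b probe sets. All fits reuse the same arrays, and the filter, the changed prior and the replicate block cannot alter the difference of a probe set. Over all probe sets the 6 calls became 16 above the median level, 20 with an intensity trend and robust prior, 42 with array weights, 0 with the replicate block and 0 to 3 with 1 array left out. The median of the members (-0.0085) became -0.092 with array weights and -0.078 to -0.0028 with 1 array left out, and of the left-out arrays only Saline 1 moved it (to -0.078) by more than the spread between arrays. The sign of Scn1a turned after repeated quantile normalization (-0.0054), after cyclic loess (-0.013) and with array weights (-0.013, or -0.017 at the gene level), and the change ran from -0.047 to 0.041 with 1 array left out. With 1 array left out, Scn2b ran from -0.098 to 0.12, Scn3a from -0.17 to 0.18 (Y00766_at) and from -0.064 to 0.045 (Y00766_g_at), and Scn8a from -0.014 to 0.19 (L39018_at). With array weights Y00766_at was at -0.080, Y00766_g_at at -0.13, L39018_at at 0.15 and Scn2b at 0.092. At the gene level Scn3a was at 0.048 with its most variable probe set and at 0.015 with the mean of its probe sets, and Scn8a at -0.050 with that mean. The cause of these turns was not tested. Deviations from the group means correlated at -0.018, -0.23 and 0.17 between same-numbered arrays. These values cannot settle whether replicate numbers pair the arrays, since each group had only 3 arrays. With the replicate block 0 members were called, and Scn2a stayed at -0.21 (adjusted p = 0.997 in limma).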
